A study of Drosophila melanogaster with 6 samples.

Results

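The mitochondrial respiratory chain genes were examined in eye-antennal imaginal discs of Drosophila melanogaster, the larval epithelia that form the adult eye and antenna. Members were the probe sets of the Affymetrix array whose annotation names exactly 1 gene with a current symbol starting ND- (complex I), Sdh (complex II), UQCR- (complex III), COX (complex IV) or ATPsyn (complex V). This gave 69 probe sets of 67 genes, of 13966 probe sets on the array that are not controls. Complex I had 31 of the 40 genes with such symbols in the gene table, complex II 7 of 8, complex III 4 of 9, complex IV 11 of 19 and complex V 14 of 15. The other genes with these symbols, among them SdhA, UQCR-C1, UQCR-C2 and the mitochondrially encoded COX1, COX2 and COX3, were not analysed here. Of the 69 probe sets, 51 stood for 49 canonical subunits, 17 for paralogues marked by an L at or near the end of the symbol (such as COX4L and ND-51L1), and 1 for the complex II assembly factor Sdhaf3.

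All 6 samples carried GMR-Gal4, a driver that the labels place in every cell behind the morphogenetic furrow of the eye disc, so cells ahead of the furrow and the antennal disc are measured with it but are not the driver's target. In 3 samples (GMR Gal4/UAS RasV12) it drove RasV12, a constitutively active form of the small GTPase Ras, and in 3 (GMR Gal4/+; UAS sSpi/+) it drove sSpi, a secreted form of the EGF receptor ligand Spitz. Larvae grown at 25 °C were taken at the wandering 3rd instar, each array received RNA pooled from 100 discs, and the sample titles number 3 biological replicates per genotype. No disc without a transgene was analysed here. The sSpi samples were grouped by their titles and genotype fields, since the free-text description they carry names RasV12.

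The respiratory chain sits in the inner mitochondrial membrane. Complexes I and II pass electrons from NADH and succinate to ubiquinone, complex III passes them to cytochrome c and complex IV to oxygen. Complexes I, III and IV pump protons as they do so, and complex V, the ATP synthase, makes ATP from the returning protons. Apart from a small set of core subunits encoded in the mitochondrion, the subunits are encoded in the nucleus, and many of their duplicated genes in Drosophila are expressed mainly in testis. In the developing eye, mutations of nuclear chain genes are known for their effects on cell proliferation behind the furrow.

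The 6 arrays had been scaled to 1 level, with median signals from 39.5 to 41.4. A control probe set for the middle of 18S ribosomal RNA measured 157 on RasV12 replicate 1 and 24.7 to 30.4 on the other 5 arrays, and the same array stood apart on the second principal component, at 20.3 against -13.4 to 3.93. On the first component sSpi replicate 2 was at 19.6 and the other sSpi arrays at 9.79 and 8.47. Of 13 eye disc genes such as ey, eya, so and ato, 12 had signals high enough to be tested. The genotypes differed in 4 of the 12 by the test used below, which 2.61% of all probe sets tested passed. In RasV12 ato (2.14-fold) and lz (3.74-fold) were higher, and ey (0.717-fold) and ro (0.657-fold) lower. Because a disc is a mixture, fewer cells of a type and less RNA per cell cannot be told apart in any value here.

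No respiratory chain gene passed the test for a difference between the genotypes. Of 57 member probe sets tested on log2(signal + 16), 0 passed an adjusted p of 0.05 in limma, while 2.61% of all 8380 probe sets tested did. Only ATPsynbeta had an unadjusted p under 0.05, which is 1.75% of the members tested, and 15.2% of all probe sets did. The members' differences, RasV12 minus sSpi, had a median of 0.03 on the log2 scale, with 31 above 0 and 26 below, and the median over all probe sets tested was -0.01. For 48 of the 49 canonical probe sets tested the 95% interval lay within 1.5-fold in either direction, the exception being ATPsynbeta, and the same held for 72.7% of all probe sets tested. It held for 4 of the 7 L paralogues tested, and the interval of ND-20L reached 2.24-fold. The signals of the 2 genotypes did not overlap for 7 of the 57 members, or 12.3%, against 21.3% of all probe sets tested. Of these 7, 4 were higher in RasV12 (10.2% of all probe sets tested) and 3 lower (11.1% of all).

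**Figure D1:**
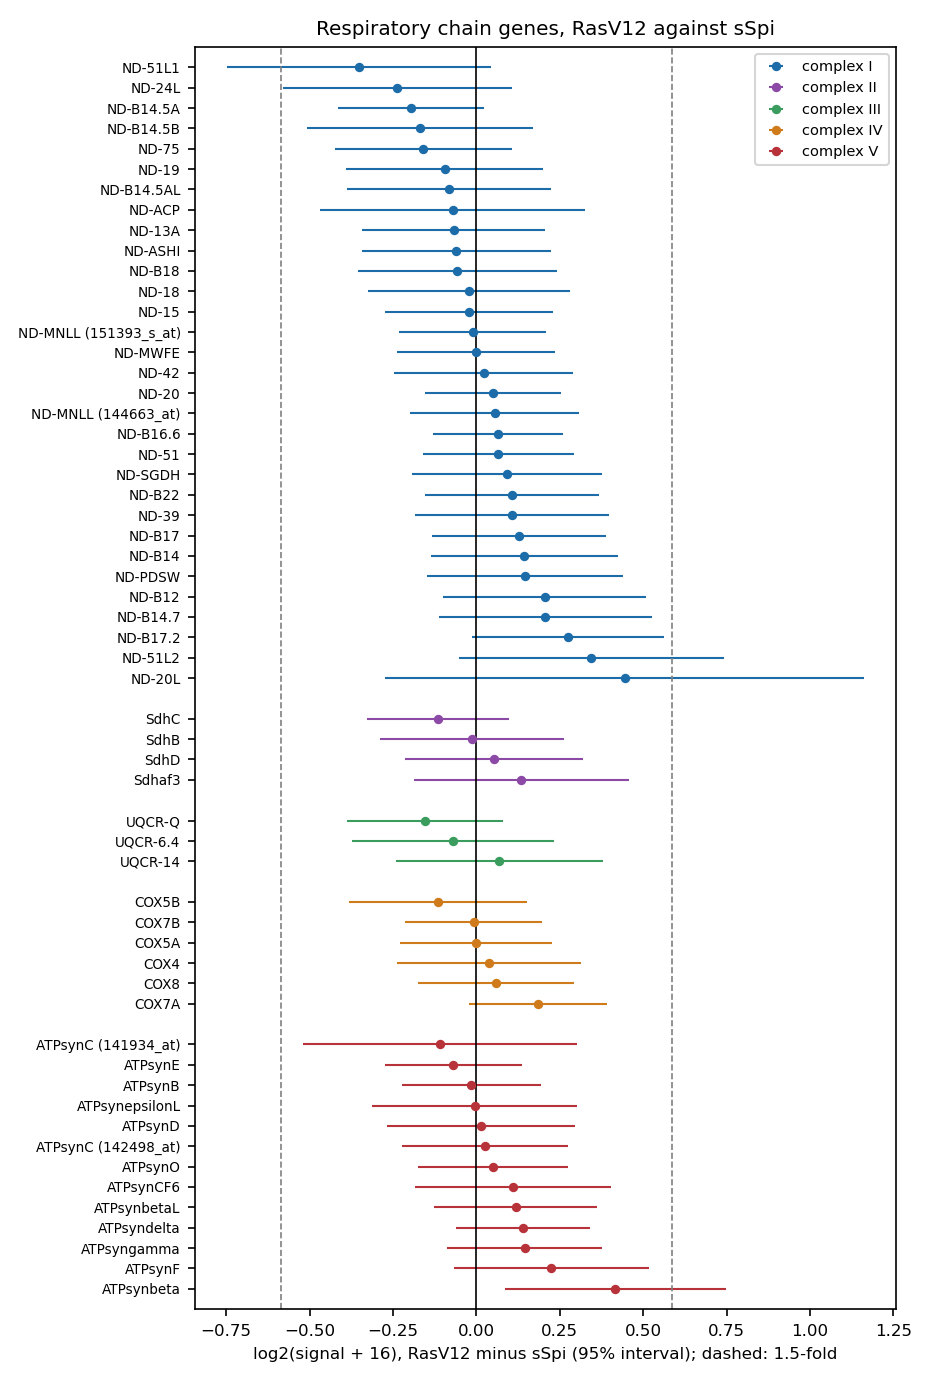
Difference between RasV12 and sSpi for each of the 57 respiratory chain probe sets tested, on the log2(signal + 16) scale, with the 95% interval of the limma fit and colours for complexes. Dashed lines mark 1.5-fold. Only the interval of ATPsynbeta, from 0.08 to 0.75, does not contain 0.

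Complex I, the NADH dehydrogenase, gave 31 of the 57 probe sets tested, 26 of them canonical, and none passed the test. The canonical differences ran from -0.20 to 0.27 with a median of 0.04. The largest was that of ND-B17.2, an accessory subunit, with signals of 238, 171 and 184 in RasV12 and 160.2, 156 and 161 in sSpi. The genotypes did not overlap, but the difference of 0.27 ± 0.13 (SE) did not pass (limma adjusted p = 0.36, n = 3). The highest of the 6 signals was that of RasV12 replicate 1. ND-B14.5A, also an accessory subunit, lay the other way, at 391, 345 and 377 in RasV12 and 417, 452 and 412 in sSpi. Again the groups did not overlap, and the difference of -0.20 ± 0.10 did not pass (limma adjusted p = 0.40, n = 3). The 2 canonical genes of complex I with separated groups thus pointed in opposite directions.

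Among the subunits that carry the electron path of complex I, ND-51, ND-75 and ND-20 had overlapping signals, and ND-23, ND-24, ND-30 and ND-49 were not analysed here. ND-51, the subunit that oxidises NADH, measured 324, 297 and 353 in RasV12 and 301, 312 and 314 in sSpi, and the 2 ranges overlapped. Its difference was 0.07 ± 0.10, with a 95% interval from 0.894-fold to 1.22-fold. ND-75, the large iron-sulphur subunit, measured 237, 256 and 294 against 261, 313 and 310.2, a difference of -0.16 ± 0.12. ND-20, an iron-sulphur subunit next to the quinone site, measured 571, 578 and 608 against 538, 592 and 566, a difference of 0.05 ± 0.09. The 2 probe sets of ND-MNLL, an accessory subunit, gave 0.05 ± 0.11 and -0.01 ± 0.10. ND-B12, another accessory subunit, was at 201, 161 and 138 in RasV12 and at 139, 136 and 149 in sSpi, overlapping ranges with a difference of 0.20 ± 0.14. Some genes were picked for description with their values in view, namely ND-75, ND-ACP, ND-B14.5B, ND-19, ND-B14.7, ND-B16.6, ATPsyngamma, ND-B8, COX7C and blw.

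Some complex I genes varied more among the RasV12 arrays than between the genotypes. ND-ACP, the mitochondrial acyl carrier protein, measured 793, 527 and 454 in RasV12 and 592, 644 and 581 in sSpi. ND-B14.5B, an accessory subunit, measured 659, 449 and 439 against 537, 607 and 574, and ND-19, another, 352, 249 and 263 against 310.4, 307 and 299. In each of these 3 genes RasV12 replicate 1 was the highest of the 6 arrays and the other 2 RasV12 arrays were the lowest. Without RasV12 replicate 1 the difference of ND-B14.5B went from -0.17 to -0.35 (limma adjusted p = 0.077), that of ND-ACP from -0.07 to -0.30 (limma adjusted p = 0.15) and that of ND-19 from -0.10 to -0.24 (limma adjusted p = 0.18). ND-B16.6 varied less, with 1239, 1188 and 1183 in RasV12 and 1121, 1193 and 1137 in sSpi, and ND-B14.7 gave 260.5, 279 and 189.5 against 199, 220.2 and 198. Both had overlapping groups.

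Complex II, succinate dehydrogenase, which is also an enzyme of the tricarboxylic acid cycle, had 3 canonical subunits tested and none passed. SdhC, a membrane anchor, measured 229.6, 213 and 225 in RasV12 and 238, 248 and 241 in sSpi. The groups did not overlap, yet the difference of -0.12 ± 0.09 was small and did not pass (limma adjusted p = 0.62, n = 3). SdhD, the other anchor, was at 458, 346 and 364 against 361, 383 and 373, with a difference of 0.05 ± 0.12. SdhB, the iron-sulphur subunit, was at 306, 268 and 320.2 against 262, 301 and 344, with a difference of -0.01 ± 0.12. The ranges of SdhB and SdhD overlapped. The assembly factor Sdhaf3 measured 64.9, 49.6 and 49.5 against 43.6, 45.9 and 55.4, overlapping ranges with a difference of 0.13 ± 0.14 (limma adjusted p = 0.72, n = 3).

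Complex III, the cytochrome bc1 complex, was covered by 3 small canonical subunits, and all 3 had overlapping groups. UQCR-Q was at 1341, 1163 and 1159.7 in RasV12 and 1383, 1456 and 1242 in sSpi, a difference of -0.15 ± 0.10 (limma adjusted p = 0.54, n = 3). UQCR-6.4 was at 966, 724 and 691 against 770.1, 900.1 and 810.5, and UQCR-14 at 446, 318 and 325 against 372, 333 and 321, with differences of -0.07 ± 0.14 and 0.07 ± 0.14. In UQCR-14 and UQCR-6.4 the highest signal of all 6 was again that of RasV12 replicate 1. Without that array the median difference of the complex went from -0.07 to -0.22, and no member passed.

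Complex IV, cytochrome c oxidase, had 6 canonical nuclear subunits tested, with differences from -0.12 to 0.18 and a median of 0.02, and none passed. COX7A was the 1 gene of the complex with separated groups, at 1207, 1189 and 1298 in RasV12 and 1061, 1033 and 1151 in sSpi. Its difference of 0.18 ± 0.09 did not pass (limma adjusted p = 0.40, n = 3), and the interval ran from 0.985-fold to 1.31-fold. COX5A measured 914, 749 and 789.9 against 803, 809 and 833, COX4 1560.3, 1177 and 1217 against 1236, 1376 and 1213, and COX8 1168, 1002 and 1214 against 1147, 1056 and 1035. In all 3 the genotypes overlapped, and the differences were -0.00, 0.04 and 0.06. COX5B was at 1099.9, 854 and 934 against 1016, 1148 and 960.0, with a difference of -0.12 ± 0.12. COX7B was at 1011, 896 and 998 against 959, 982 and 977, with a difference of -0.01 ± 0.09 and overlapping groups.

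Complex V, the ATP synthase, had 11 canonical probe sets of 10 genes tested, none of which passed, with a median difference of 0.05. ATPsynbeta, the catalytic subunit of the F1 head, had the largest difference of all canonical members. It measured 577, 581 and 604 in RasV12 and 563, 362 and 405 in sSpi, so the RasV12 arrays lay close together and sSpi replicate 1 lay close below them. The difference was 0.42 ± 0.15, or 1.33-fold with a 95% interval from 1.06-fold to 1.68-fold, and it did not pass after adjustment (limma adjusted p = 0.21, n = 3). It came nearest to the threshold without sSpi replicate 1, at 0.60 (limma adjusted p = 0.054), and without sSpi replicate 2 it was 0.29 (limma adjusted p = 0.53). The central stalk subunits that turn within the head had smaller differences. ATPsyngamma, the rotor shaft, measured 1167, 1107 and 1346 against 1049, 1158 and 1056, a difference of 0.14 ± 0.10. ATPsyndelta, also of the central stalk, measured 964, 944 and 1001 against 909.9, 896 and 831, a difference of 0.14 ± 0.09 (limma adjusted p = 0.51, n = 3). Its groups did not overlap, whereas those of ATPsyngamma did.

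In the stalk and membrane part of complex V, ATPsynF measured 954, 800.1 and 753 in RasV12 and 679.9, 828 and 633 in sSpi. The ranges overlapped, with a difference of 0.22 ± 0.13 (limma adjusted p = 0.46, n = 3). ATPsynB and ATPsynCF6, of the peripheral stalk, differed by -0.02 ± 0.09 and 0.11 ± 0.13, and ATPsynE by -0.07 ± 0.09. ATPsynC, which forms the proton-conducting ring, had 2 probe sets. The first measured 856, 952 and 1087 against 969.5, 988 and 877, and the second 78.2, 52.7 and 50.9 against 79.9, 69.6 and 50.2. Both had overlapping groups, with differences of 0.03 ± 0.11 and -0.11 ± 0.18, so they pointed in opposite directions with intervals that overlap.

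Most paralogues named with an L gave little signal in discs of either genotype. Of 17 such genes, 10 had a mean signal below 23.4, the lowest mean tested, and their single values ran from 0.437 to 20.1. All 4 of complex IV (COX4L, COX5BL, COX6AL2 and COX7AL) lay between 0.437 and 4.24 on every array. COX4L, for example, was at 1.66, 4.0 and 0.876 in RasV12 and 0.551, 0.580 and 1.01 in sSpi. The 3 of complex II (SdhAL, SdhBL and SdhCL) lay between 0.938 and 8.80. UQCR-14L, ATPsynCF6L and ATPsynGL were also below the filter. No order was read from these low values. Of 8 testis markers, 6 were below the filter too, with single values from 0.399 to 11.5, while Mst98Ca, at 24.7 to 92.5, and Mst84Da, at 28.1 to 42.7, were above it.

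The other 7 L paralogues were tested and none passed. ND-20L was the least even, at 47.4, 9.33 and 38.6 in RasV12 and 10.6, 18.4 and 22.1 in sSpi, so that RasV12 replicate 2 was the lowest of all 6 arrays and the other 2 RasV12 arrays were the highest. Its difference of 0.44 ± 0.32 did not pass (limma adjusted p = 0.56, n = 3), and without RasV12 replicate 2 it was 0.85 (limma adjusted p = 0.13). The 2 duplicates of ND-51 pointed in opposite directions. ND-51L1 measured 24.5, 21.9 and 17.0 against 40.1, 30.8 and 24.1, a difference of -0.35 ± 0.18, and ND-51L2 measured 45.4, 37.1 and 53.1 against 38.1, 36.6 and 22.6, a difference of 0.34 ± 0.18 (limma adjusted p = 0.40 and 0.41, n = 3). Both had overlapping groups. ND-24L measured 23.7, 24.5 and 20 against 34.1, 25.4 and 29.8, without overlap, and its difference of -0.24 ± 0.15 did not pass (limma adjusted p = 0.51, n = 3). ATPsynbetaL, ND-B14.5AL and ATPsynepsilonL, with signals from 103 to 128, 59.6 to 83.2 and 55.1 to 75.8, differed by 0.12 ± 0.11, -0.08 ± 0.14 and -0.01 ± 0.14.

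**Figure D2:**
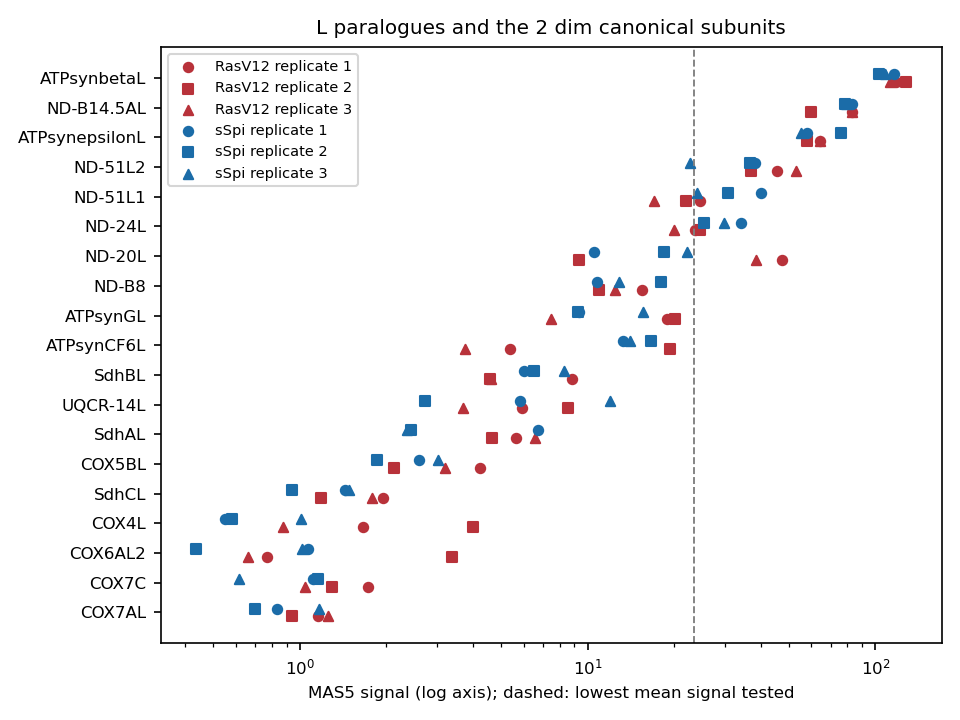
Signal of the 17 L paralogues and of the 2 canonical subunits below the filter on each of the 6 arrays (log axis), RasV12 in red and sSpi in blue. The dashed line marks 23.4, the lowest mean signal tested, and the 4 paralogues of complex IV lie at or below 4.24.

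Among canonical subunits, 2 genes were also below the filter. COX7C gave 1.72, 1.30 and 1.04 in RasV12 and 1.11, 1.16 and 0.617 in sSpi, and ND-B8 gave 15.5, 11.0 and 12.5 against 10.8, 18.1 and 12.9. Neither was tested, and whether these probe sets report their genes was not tested. In the gene order of the reference table, COX5B and COX5BL lie with 1 protein-coding gene between them and COX7A and COX7AL with 2. In both pairs the canonical gene was among the tested probe sets and its neighbour paralogue lay at or below 4.24 on every array.

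The canonical subunits varied together between arrays of 1 genotype. Their mean log2 deviation from the mean of the 6 arrays was 0.15 on RasV12 replicate 1, -0.08 and -0.02 on RasV12 replicates 2 and 3, and -0.04, 0.04 and -0.05 on sSpi replicates 1 to 3. The spread within RasV12 was therefore larger than the difference between the genotype means, 0.03. RasV12 replicate 1 was the highest of the 6 arrays for 27 of 49 canonical probe sets, or 55.1%, and for 24.3% of all probe sets tested. RasV12 replicate 2 was the lowest for 18 of 49, or 36.7%, and for 14.7% of all. For 22 of the 49 both the highest and the lowest array were RasV12 arrays.

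In each complex RasV12 replicate 1 had the highest mean deviation. On that array it was 0.17 for complex I, 0.09 for complex II, 0.22 for complex III, 0.13 for complex IV and 0.13 for complex V, canonical subunits only. In complex II sSpi replicate 3 lay close, at 0.07. RasV12 replicate 1 was the highest array for 17 of 26 canonical probe sets of complex I and 1 of 3 of complex II. The counts were 2 of 3 for complex III, 3 of 6 for complex IV and 4 of 11 for complex V, against 24.3% of all probe sets tested. The lowest array for complex V was sSpi replicate 3 at -0.15, and sSpi replicate 3 was the lowest array for 6 of its 11 canonical probe sets. The median coefficient of variation of the canonical signals was 12.6% in RasV12 and 6.53% in sSpi, and 37 of 49 varied more in RasV12. Over all probe sets tested these medians were 13.2% and 10.8%, and 58.4% varied more in RasV12. The array with the raised chain signals is the one with the 18S signal of 157, and the part of that in the result was not tested.

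**Figure D3:**
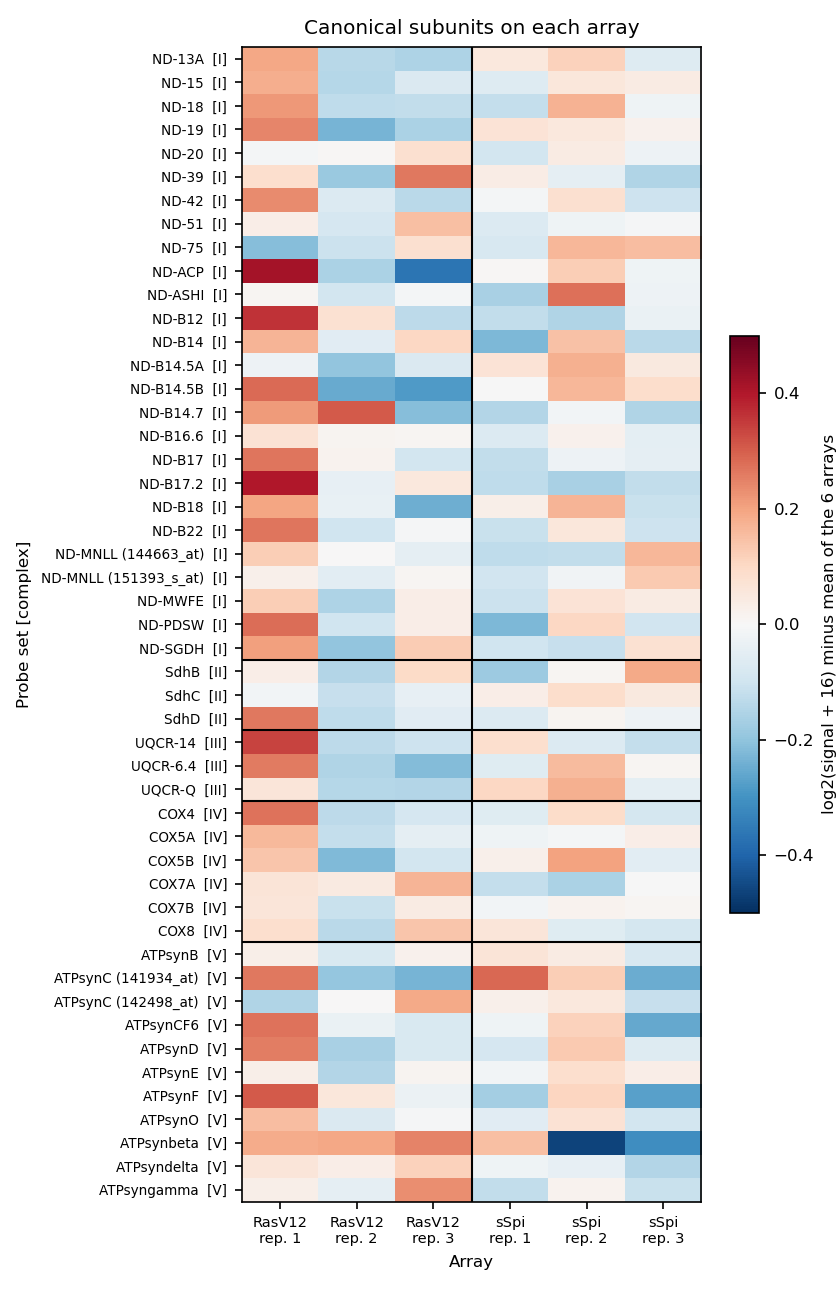
Deviation of each canonical probe set from its mean over the 6 arrays on the log2(signal + 16) scale (red above, blue below), arrays in columns and complexes in blocks. RasV12 replicate 1 is the highest array for 27 of the 49 rows, and the mean deviations of the 2 genotypes overlap in all 5 complexes.

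Without RasV12 replicate 1 the medians of complexes I to V were -0.03, -0.05, -0.22, -0.06 and 0.00, against 0.02, 0.02, -0.07, 0.02 and 0.05 with it. No member passed in limma without that array, while 5 of 57 (ATPsynbeta, ND-ACP, ND-B14.5A, ND-B14.5B and ND-19) had an unadjusted p under 0.05, as 20.1% of all probe sets did. Without both RasV12 replicate 1 and sSpi replicate 2 the medians were -0.03, -0.04, -0.16, -0.03 and 0.09, and again no member passed.

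A list of other genes of the chain, whose symbols fall outside the naming rule, had 0 of 9 tested passing in limma and 1, cype, at an unadjusted p under 0.05, with a median difference of -0.04. The 9 include Coq2 and Coq9, which act in the synthesis of ubiquinone and are not subunits. The blw gene, which encodes the alpha subunit of the ATP synthase, measured 2829, 2807 and 2823 in RasV12 and 2934, 3340.4 and 2702 in sSpi, a difference of -0.08 ± 0.10. Its partner in the F1 head is ATPsynbeta, described above at 0.42 ± 0.15. The complex IV subunit gene cype measured 1763, 1337 and 1522 against 1727, 2081 and 1842, with overlapping ranges and a difference of -0.29 ± 0.12 (limma adjusted p = 0.29, n = 3). The ATP synthase epsilon gene sun was at 910.1, 823 and 824 against 784, 745 and 777, without overlap, and its difference of 0.15 ± 0.09 did not pass (limma adjusted p = 0.50, n = 3).

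No gene passed in the other mitochondrial groups. Of 12 assembly factors of the chain, 12 tricarboxylic acid cycle genes, 12 carriers and channels and 14 genes of mitochondrial DNA upkeep and biogenesis, none passed in limma, 1 in each group had an unadjusted p under 0.05, and the median differences were 0.02, -0.00, -0.03 and -0.01. The smallest unadjusted p of each group belonged to sicily, a complex I assembly factor, at -0.39 ± 0.16, ScsbetaG, a succinyl-CoA synthetase subunit, at 0.22 ± 0.09, Tom40, the pore of the outer membrane import channel, at -0.28 ± 0.11, and mtDNA-helicase at -0.34 ± 0.13 (limma adjusted p = 0.28, 0.31, 0.25 and 0.26, n = 3). The second smallest in each group belonged to bsf (0.29), Pdk, the kinase that inhibits pyruvate dehydrogenase (0.24), porin (0.18) and Marf, a mitofusin (0.23), none of which passed. The Tom40 signals were 206, 184 and 189 in RasV12 and 229, 266 and 222 in sSpi, without overlap. The tricarboxylic acid cycle list is wider than the cycle. It includes Pdk and muc, of pyruvate dehydrogenase, the NADP-dependent isocitrate dehydrogenase gene Idh and Mdh1, whose malate dehydrogenase is cytosolic. Of 8 glycolytic genes none passed in limma, and 0 had an unadjusted p under 0.05, with Pgi at 0.24 ± 0.12 and Pfk at -0.17 ± 0.10.

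Ribosomal protein genes, another large set of coordinately built complexes, were set beside the chain. Of 65 mitochondrial ribosomal protein probe sets tested 0 passed in limma and 6 had an unadjusted p under 0.05, with a median difference of -0.03. Of 32 cytoplasmic ones 0 passed and 1 had an unadjusted p under 0.05, with a median of -0.10. Without RasV12 replicate 1, 2 of these 97 probe sets passed, and 369 of all 8380 did. On RasV12 replicate 1 the mean deviation was 0.17 for the mitochondrial ribosomal proteins and 0.16 for the chain assembly factors, close to the 0.15 of the canonical subunits. Between these and 0 lay the cytoplasmic ribosomal proteins at 0.09, the chain genes outside the naming rule at 0.08 and the carriers and channels at 0.06. The mean deviation was -0.02 for the tricarboxylic acid cycle list, -0.01 for mitochondrial DNA upkeep and biogenesis and -0.01 for glycolysis. The differences among these groups on 1 array were not tested.

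**Figure D4:**
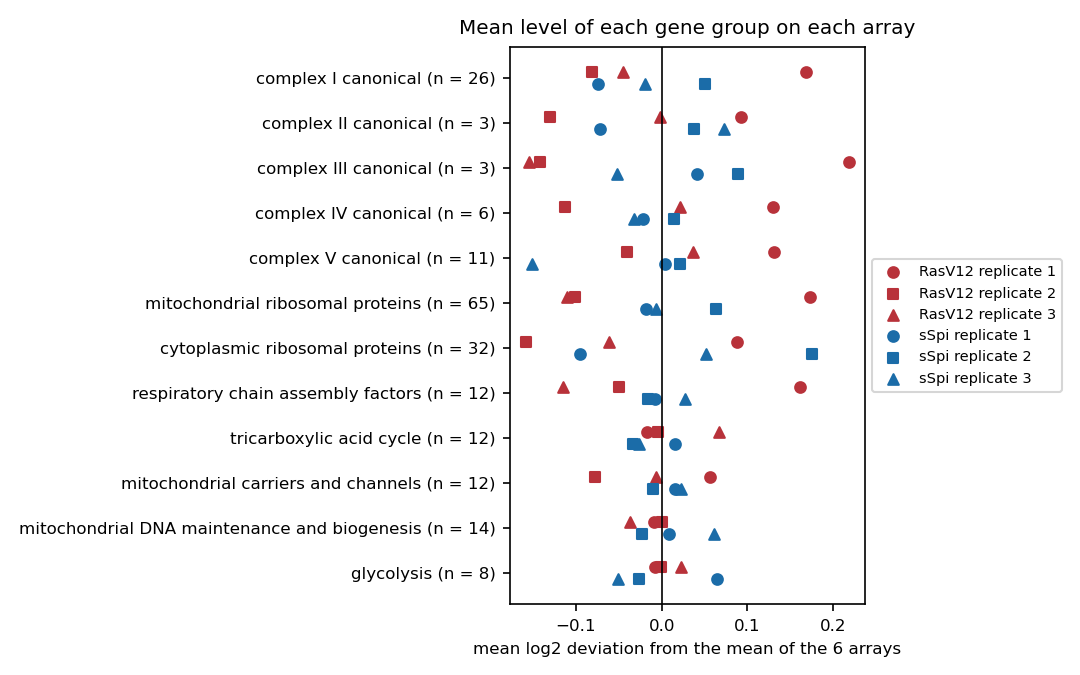
Mean log2 deviation from the mean of the 6 arrays for each complex (canonical subunits) and for 7 other gene groups, 1 point per array, RasV12 in red and sSpi in blue. RasV12 replicate 1 lies at 0.09 to 0.22 for the 5 complexes and at -0.02 for the tricarboxylic acid cycle. It lies at 0.09 for the cytoplasmic ribosomal proteins and at 0.06 for the carriers and channels.

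Muscle and fat body are rich in mitochondria and could be carried along with discs. The summed signal of the 6 muscle genes with a probe set, of 9 listed, was 3294, 2811 and 2476 in RasV12 and 2674, 2739.9 and 3306 in sSpi, so it was high on RasV12 replicate 1, where the chain deviation was 0.15, and on sSpi replicate 3, where it was -0.05. Act87E, at 2045 to 2584, made up most of this sum, and Mlp60A was at 5.46 or less on every array. The sum thus hides wider changes of other muscle genes. Mlc2 measured 557, 282 and 289 in RasV12 and 163, 209 and 655 in sSpi. For fat body, 3 of 6 listed genes had a probe set, and their summed signal was 238 on sSpi replicate 1 and 70.5 to 85.1 on the other arrays, and the chain deviation of sSpi replicate 1 was -0.04. RasV12 replicate 1 also had the highest summed signal of 7 plasmatocyte genes, 456 against 263 to 414 on the other arrays, and of the 8 testis genes, 161 against 71.1 to 128. Of the plasmatocyte genes, Hml, eater, srp and Sr-CI were highest on that array, Pxn and crq on RasV12 replicate 2 and NimC1 on sSpi replicate 3. Mst98Ca, at 92.5, made up most of the testis sum there, and 6 of the 8 testis genes were below the filter. The summed signal of 7 salivary gland genes was 880 on sSpi replicate 2 and 122 to 238 on the other arrays. The part of RNA from these cell types in the chain signals was not tested. The summed signals of 8 glial genes, 1159 to 1315 in RasV12 and 1687 to 1791 in sSpi, and of 6 neuronal genes, 694 to 729.9 and 917 to 1025, were lower in every RasV12 array. Gli, at 693 to 778 in RasV12 and 1164 to 1235 in sSpi, gave most of the glial sum. Nrg, at 449 to 467 and 649 to 738, gave most of the neuronal sum, so the sums mainly follow these genes. Also lower in every RasV12 array were moody, Gs2 and brp, while the groups overlapped for repo, wrapper, loco, elav and nSyb. In contrast, nrv2 was higher in every RasV12 array, with means of 99.3 and 62.9. The mean of futsch was higher in RasV12, 73.4 against 57.5, with overlapping groups. The glial marker gcm and the neuronal marker fne, both below the filter, were also higher in every RasV12 array.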

How the data were processed

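RNA of 6 disc samples had been labelled with biotin from 5 ug of total RNA each and hybridised to 1-colour Affymetrix arrays, per the labels' protocols. The authors deposited linear intensities, 1 signal for each probe set, made with MAS5 per the submitters' processing notes. The MAS5 version and the genome build are not given in the sources used here. Without the control probe sets, each array had a mean of 99.4 after trimming 2% at each end, so the authors' intensities were already scaled. No background step was repeated. All 6 columns were matched to samples, and 0 were left over.

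After 44 controls were set aside, the annotation gave 1 symbol for 12443 of 13966 probe sets, several for 327 and none for 1196. Current symbols were found by gene identifier for 12394 in a RefSeq gene table (assembly Release 6 plus ISO1 MT). Of the 14010 probe sets, the 60% of non-control sets with the highest mean over all arrays (8380) were tested as log2(signal + 16), which understates the change of dim genes. The fit was lmFit and eBayes with a trend (limma 3.58.1, R 4.3.3); tests were two-sided and p-values adjusted by Benjamini-Hochberg over the 8380. The fit was tested on simulated data with independent noise for each probe set. True log2 changes of 0.25 were found in 0.4% of cases, of 0.5 in 23.2% and of 1.0 in 76.8%. A gene that did not pass may thus still differ by amounts such as 0.25 or 0.5, where its own interval includes them. These rates are over the 8380 probe sets and were not worked out for the members. The median SE was 0.12 for the canonical subunits and 0.14 for all probe sets tested. The interval of ND-B16.6, from -0.13 to 0.26, leaves out 0.5, while that of ATPsynbeta, from 0.08 to 0.75, includes it. Values are signals, log2 differences are RasV12 minus sSpi ± SE, and the number of arrays, 3 against 3, limits the precision. P-values set the genotype difference against the spread between arrays of 1 genotype, moderated over all probe sets tested.

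Members and lists were chosen with earlier results of these data known. Named were members past the threshold, the 3 smallest p per complex in each direction, genes with several probe sets, L paralogues with their partners, and in companion lists the genes past the threshold and the 2 smallest p; a companion gene with several probe sets was represented by the brightest. Same-numbered arrays correlated in their deviations at -0.11, -0.04 and -0.14, and no pairing by number was assumed. Python 3.11.15 with matplotlib 3.10.9 made the figures.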

Additional observations from a re-analysis of the deposited data

How the results depend on the processing

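In 16 other settings no member passed an adjusted p of 0.05 in limma: another pseudocount (1 or 64), another filter (none, or the brightest 40%), arrays scaled by quantiles or by their median, a fit without the trend or with the replicate block, 1 probe set per gene, each array left out in turn, and RasV12 replicate 1 and sSpi replicate 2 left out together. The smallest adjusted p of a member lay between 0.054 (ATPsynbeta without sSpi replicate 1) and 0.38. The count over all probe sets was 219, it was 138 without a filter, where 13966 probe sets are tested, 159 with the replicate block, and it ranged from 86 to 369 with 1 array left out, where the cause was not tested. With the replicate block no companion list, complex or ribosomal protein call changed. The medians of complexes I to V stayed at 0.02, 0.02, -0.07, 0.02 and 0.05. They could not move, because each replicate number occurs once in each genotype. Of the mitochondrial and cytoplasmic ribosomal protein probe sets, 0 passed, and with 1 array left out 0 to 2 did. Each median moved by less than the SD between arrays in every setting. That SD included the array left out, so with 1 array left out this could hardly fail and shows little. Without RasV12 replicate 1 the medians of complexes I, II and IV changed sign, and that of complex III went from -0.07 to -0.22. Of 551 repeats over 35 named member probe sets, 525 kept their direction and 26, over 14 probe sets, changed sign, all without a call. The 525 include repeats that could not change sign. Another filter, a fit without the trend, the replicate block and 1 probe set per gene leave the difference of a probe set as it was. The excess of RasV12 replicate 1 over the other arrays, 0.18 over the canonical subunits, lay between 0.16 and 0.20 in the settings that keep this array. The 12 members with a mean signal under 23.4 were tested only without the filter. The number of arrays, 3 a genotype, limits the precision.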
